A study of Mus musculus with 11 samples.

Results

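The 3 most deeply counted regions labelled Pdpn-adjacent are described here, out of 6 with that label and 11 regions in all. They are regions 4, 7 and 8 of a spatial profiling study of the naive mouse mammary gland. They were chosen by depth: a region was kept when the summed counts of its endogenous probes, those aimed at mouse genes, exceeded 100000. Region 4 held 2271664 counts, region 8 held 301401 and region 7, just inside the threshold, held 225875. Region 3, just outside it, held 81760, and regions 11 and 2 held 30316 and 22757. These totals chose the regions and are given as a description only.

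All regions came from periostin lineage tracing mice, in which the green protein ZsGreen marks cells that express periostin (Postn), or whose ancestors did. Glands of 3 mice, kept as frozen blocks after paraformaldehyde fixation, were sectioned, hybridised with whole-transcriptome probes, stained for smooth muscle actin (SMA) and podoplanin (Pdpn), and the ZsGreen-positive area of each chosen region was collected. The labels name no other allele, strain, sex or age, give no treatment, and count 12 collected areas, of which 11 were analysed here (6 Pdpn-adjacent, 5 SMA-adjacent). Which mouse gave which region is not stated, so regions 4, 7 and 8 may share a mouse, and the spread between them may be within an animal, between animals or both. The driver of the reporter is not described beyond the words lineage tracing, so a ZsGreen-positive cell need not be making periostin now.

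The mammary gland is an epithelial tree of ducts, with an inner luminal and an outer contractile myoepithelial layer, embedded in a pad of white fat. Fibroblasts lie around ducts, along vessels and between fat cells, and lay down collagens, proteoglycans and other matrix proteins. Blood vessels, lymphatic vessels and nerves run through the fat, and skeletal muscle of the body wall and skin lies beside it. Podoplanin is a surface protein of lymphatic endothelium that some other cells, myoepithelium and fibroblasts among them, can also carry.

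A level here is a probe's count divided by the geometric mean of the 210 negative-control probes of the same region, which match no mouse transcript, so a level of 1 is background. That geometric mean was 76.7 counts in region 4, 6.87 in region 7 and 7.83 in region 8. A probe was called above the floor when the log2 of its count lay more than 2 SD over the mean of the negative probes' log2 counts, which came to levels of 2.33, 3.12 and 2.88 in regions 4, 7 and 8. By that rule 1842 of 19965 probes were above the floor in region 4 (9.23%), 1143 in region 7 (5.73%) and 2041 in region 8 (10.2%), as were 9, 1 and 2 of the 210 negative probes. Probes bind with different strength, so a level ranks probes and does not compare RNA amounts between genes. The intervals printed are exact and at 95%, and cover counting error only. Each segment is a small bulk sample, in which fewer cells of a type and less RNA per cell cannot be told apart.

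The share of counts left after background was taken away was 26.0% in region 4, 30.0% in region 7 and 41.4% in region 8, and the median level over all endogenous probes was 1.23, 1.31 and 1.53. Levels in region 8 were thus shifted upwards as a whole, with a median log2 ratio of 0.35 to region 4 and 0.30 to region 7, against 0.05 for region 7 to region 4. After scaling by TMM, which centres the bulk of probes, the median ratios were 0.998 for regions 8 and 4, 0.9975 for 8 and 7, and 0.9966 for 7 and 4. Rank correlations of the levels across all 19965 probes were 0.694 between regions 4 and 7, 0.694 between 4 and 8, and 0.555 between 7 and 8, where probes are not independent replicates and share their binding properties.

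The labels were set against marker genes. None of the 14 probes of a lymphatic endothelium list was above the floor in any of the 3 regions, beside 9.23%, 5.73% and 10.2% of all probes. For a list of 14 that count is near those shares. The list's median levels were 1.24, 1.38 and 1.73. Prox1, the transcription factor that specifies lymphatic endothelium, had levels of 1.56, 0.728 and 2.04 in regions 4, 7 and 8. The hyaluronan receptor Lyve1 had 1.56, 1.89 and 2.04. For the chemokine Ccl21a, which lymphatic vessels use to draw in dendritic cells, the levels were 1.55, 1.75 and 1.66. Flt4, the receptor for the lymphatic growth factor VEGF-C, and the lymphatic matrix protein Mmrn1 stayed between 0.900 and 1.28. Pdpn itself had 1.60, 1.02 and 1.79, under the floor throughout. The stain chose the surroundings and the ZsGreen mask chose the collected area, so the lymphatic wall need not be in the segment, and the word Pdpn-adjacent is used here as a label only.

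Postn was above the floor in regions 4 and 8 and not in region 7. Its counts were 187, 8 and 32, which gave levels of 2.44 (2.10 to 2.81), 1.16 (0.503 to 2.29) and 4.09 (2.80 to 5.77) in regions 4, 7 and 8. The 8 counts of region 7 cannot be told from background at this depth. Acta2, the smooth muscle actin of vessel walls and myoepithelium that the SMA stain detects, was above the floor in all 3 regions, at 3.56, 10.0 and 8.82. Region 4 was lowest for Acta2, and regions 7 and 8 had 69 counts each.

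White fat set the shared profile. Of 19965 probes, 728 (3.65%) were above the floor in all 3 regions, no negative probe was, and the 5 probes of highest shared level all belong to genes of fat cells. Fabp4, the fatty acid carrier of fat cells, had levels of 113, 128.5 and 117 in regions 4, 7 and 8, a mean of 119.5 ± 8.02 (SD, n = 3). It rests on 8686, 883 and 913 counts, and was the most even of these 5 across the regions. Cfd, the complement protease adipsin that fat cells secrete, had 107, 245.5 and 122. Scd1, which makes monounsaturated fatty acids, had 52.0, 213 and 120.0. In both of these genes region 7 was highest and region 4 lowest.

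Car3, a carbonic anhydrase abundant in fat and muscle, had levels of 89.2, 170.1 and 49.7. Fatty acid synthase (Fasn) had 52.4, 83.1 and 49.6. Region 7 was again highest for both. Region 8 was lowest for Car3, while regions 4 and 8 were close for Fasn. Of the 24 measured genes of the white adipocyte list, 22, 21 and 22 were above the floor in regions 4, 7 and 8, and 20 were in all 3. Of all probes 9.23%, 5.73% and 10.2% were, and 3.65% in all 3. The list's median levels were 8.86, 18.2 and 9.97, beside 1.23, 1.31 and 1.53 for all probes, and its probes took 2.02%, 3.44% and 1.63% of all counts. The fat-droplet protein Cidec stood at 23.8, 37.0 and 13.4, with region 7 highest and region 8 lowest. The receptor Cd36, which brings fatty acids into cells, stood at 18.2, 17.8 and 16.6 and was thus level across the regions within counting error. Thrsp, a regulator of fat synthesis, had 16.1, 27.9 and 16.1. How fat-cell RNA came to be collected under a ZsGreen mask was not tested.

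**Figure D1:**
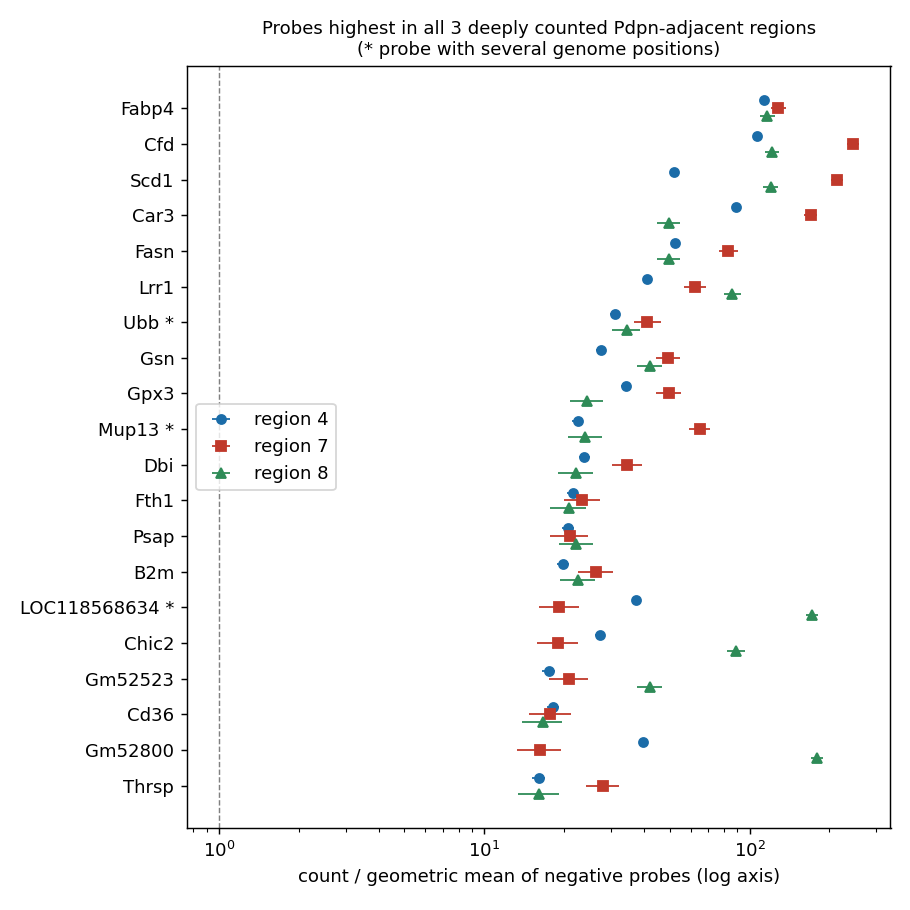
The 20 probes whose lowest level across regions 4, 7 and 8 was highest, on a log axis of count over the geometric mean of the negative probes; bars are exact 95% counting intervals, the dashed line marks background, and an asterisk marks a probe with several genome positions. Fabp4 lies between 113 and 128.5 in all 3 regions, while Gm52800 and LOC118568634 stand far to the right in region 8 alone, at 179 and 172.

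The other probes among the 20 were of household, secreted and unnamed genes. Ubiquitin (Ubb, a probe with 6 genome positions and so uncertain as to gene) had levels of 31.1, 41.2 and 34.4. The iron store Fth1 had 21.5, 23.4 and 20.8, the lysosomal precursor Psap 20.7, 21.0 and 22.2, and B2m, the light chain of MHC class I, 19.8, 26.3 and 22.5. These 4 differed less between the regions than Cfd or Scd1 did. The actin-severing protein gelsolin (Gsn) had 27.5, 49.3 and 42.2, the secreted glutathione peroxidase Gpx3 34.1, 49.5 and 24.4, and the acyl-CoA binding protein Dbi 23.9, 34.5 and 22.1. Mup13, of the major urinary protein family, had 22.5, 64.9 and 24.0, but its probe has 16 genome positions and its reads cannot be given to 1 gene. Lrr1, a leucine-rich repeat protein, had 40.9, 62.4 and 86.2. Its probe was also high in regions 2, 3 and 11, at 34.3, 37.5 and 65.8, where the median level of all probes was at or near 1, and in the 5 SMA-adjacent regions, at 33.0 to 107. The remaining 4 were highest in region 8: Gm52523, at 17.5, 20.8 and 42.0, and Chic2, Gm52800 and LOC118568634, which are taken up with that region.

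The shared probes varied little beside the range of their levels, but the rule that chose them limits this. A probe low in any 1 region was not kept, so a narrow spread is partly set by the choice. Their median levels were 3.98, 4.80 and 4.86 in regions 4, 7 and 8, where the floors were 2.33, 3.12 and 2.88. The ratio of the highest to the lowest region had a median of 1.53 over the 728 probes, 604 of them (83.0%) lay within a 2-fold range, and 31 spanned more than 3-fold. Their median SD was 0.32 on the log2 scale of the level, of which counting alone would give 0.21. The shared level was at least 10 in 38 probes, at least 5 in 183 and at least 3 in 581. The 728 made up 39.5% of the calls of region 4, 63.7% of those of region 7 and 35.7% of those of region 8, and 1434 probes were above the floor in 1 region only. Without region 7, the region of fewest calls, the count above the floor in both others was 1175, and with region 3 added it was 181. Of the shared probes 67 (9.20%) have several genome positions, against 593 of 19965 (2.97%) overall.

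Some genes of fibroblasts and their matrix, the main collagens among them, were above the floor in each region, though most members of the matrix and adventitial lists were not in regions 4 and 7. Of 16 pan-fibroblast genes 9, 8 and 12 were above the floor in regions 4, 7 and 8, 8 of them in all 3, beside 9.23%, 5.73% and 10.2% of all probes and 3.65% in all 3. The list's median levels were 2.65, 3.13 and 4.09. Col3a1, the collagen of loose connective tissue, had levels of 12.1, 22.4 and 20.6. Col1a1, a chain of the main fibrillar collagen, had 7.64, 17.8 and 17.2, and its partner chain Col1a2 had 5.20, 11.1 and 14.1. Regions 7 and 8 were alike in these collagens and region 4 was lower, with intervals for Col1a2 of 4.70 to 5.74 in region 4 against 8.72 to 13.8 and 11.6 to 16.9. The proteoglycan decorin (Dcn) had 7.42, 10.3 and 13.7, the collagen-binding Sparc 5.85, 10.5 and 14.6, and the intermediate filament vimentin (Vim) 7.69, 14.0 and 9.97. Of the 20 fibrillar matrix genes 6, 6 and 10 were above the floor, and of 16 genes of universal and adventitial fibroblasts, the kind found around vessels, 5, 4 and 7, to be read against the same shares of all probes. Of that last list Clec3b had 3.65, 3.93 and 6.52, and Dpt had 4.25, 3.78 and 6.52, both highest in region 8.

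Blood vessel genes were above the floor in small numbers in regions 4 and 7 and in greater number in region 8. Of 15 blood endothelium genes 4, 4 and 9 were called, beside 9.23%, 5.73% and 10.2% of all probes, with median levels of 1.51, 2.04 and 3.07. Cdh5, the cadherin that joins endothelial cells, had 3.36, 3.64 and 5.62, and the water channel Aqp1 had 3.35, 3.78 and 7.92. The capillary surface protein Ly6c1, which adventitial fibroblasts also make, had 4.16, 3.93 and 8.82. Of 14 smooth muscle genes 1, 5 and 4 were called, and the count in region 4 is near the share of all probes there. Tagln, an actin-binding protein of smooth muscle, had 2.20, 5.97 and 5.24, under the floor in region 4 alone. The pericyte gene Rgs5 had 4.02, 5.09 and 4.09. Elastin (Eln), the elastic fibre protein of vessel walls and connective tissue, had 1.50, 4.66 and 4.73, again lowest in region 4.

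**Figure D2:**
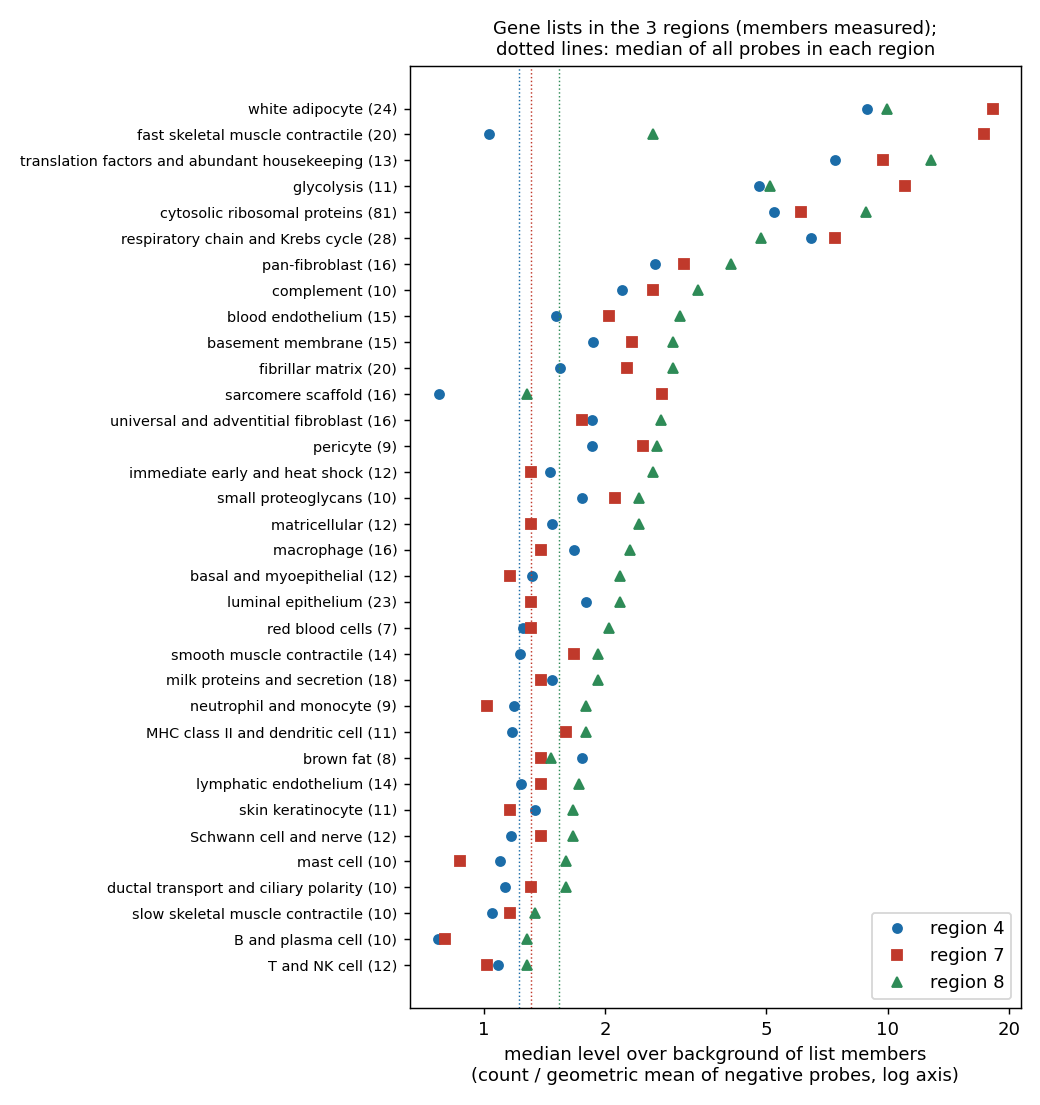
Median level over background of each of the 34 gene lists in regions 4, 7 and 8, on a log axis, with the number of measured members in brackets and the median of all probes in each region as a dotted line of the same colour. The white adipocyte list is high in all 3 regions (8.86, 18.2 and 9.97), and the fast skeletal muscle list spreads from 1.03 in region 4 to 17.3 in region 7.

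Skeletal muscle set region 7 apart. A probe was called distinct to a region when it was above that region's floor with at least 20 counts and at least 3 times its level in each of the other 2 regions. Region 7 had 26 such probes (0.13% of all), each with 1 genome position. These are levels of 1 region set against 2 others, so there is no replicate and no p-value, and the ratios chose the genes. At the edge of the rule, Smyd1 lay just inside at 3.04 times and Aldoa just outside at 2.98.

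Acta1, the actin of skeletal muscle fibres, showed the order of the regions most fully. Its probe (chr8:123892329-123892363, GRCm38.p6) gave 180, 701 and 93 counts, which are levels of 2.35, 102.0 and 11.9 in regions 4, 7 and 8. Region 7 was thus 8.59 times region 8 (6.91 to 10.8), and region 8 was in turn 5.06 times region 4 (3.90 to 6.54), whose level was at its floor. Creatine kinase of muscle (Ckm; probe chr7:19415000-19415034) had 1.13, 54.7 and 6.39. Tnnt3, the troponin T of fast fibres, had 1.19, 54.3 and 6.13. Both genes were at background in region 4, and no interval of the 3 regions overlapped another for either.

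The 2 largest ratios belonged to genes near background in both other regions. Mylpf, the regulatory light chain of fast fibre myosin, had levels of 0.652, 20.2 and 1.66, a ratio of 12.2 (6.89 to 23.5) to region 8. Myh1, a fast myosin heavy chain, had 0.769, 11.8 and 1.02, a ratio of 11.5 (5.58 to 27.6). Another fast heavy chain, Myh4, had 1.07, 37.5 and 5.62, and the calcium pump of fast fibres, Atp2a1, had 0.808, 39.7 and 5.75. The calcium buffer parvalbumin (Pvalb) had 0.587, 18.8 and 2.68. Among the other probes of the 15 largest ratios were the troponins Tnni2 and Tnnc2 (ratios of 6.21 and 5.96), the Z-disc protein Ldb3 (5.92), the muscle phosphoglycerate mutase Pgam2 (5.49), the calcium release channel Ryr1 (4.92), the muscle cytochrome oxidase subunit Cox6a2 (4.80) and myoglobin (Mb, 4.29). Each of these encodes a protein of muscle contraction, calcium handling or muscle energy supply.

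Of the 20 genes of the fast muscle list 3, 17 and 9 were above the floor in regions 4, 7 and 8, beside 9.23%, 5.73% and 10.2% of all probes, and their share of all counts was 0.0943%, 1.47% and 0.193%. The 10 genes of slow fibres gave 1, 1 and 2 calls, counts that are near those shares of all probes. Their median levels were 1.05, 1.16 and 1.34. Glycolytic genes were also highest in region 7. Aldolase A (Aldoa) had 13.3, 46.0 and 15.5, and Gapdh, whose probe has 3 genome positions, had 11.2, 38.3 and 17.6, while Eno1, the enolase of most tissues, had 11.8, 14.3 and 11.9. Of the 11 glycolysis genes 9, 10 and 9 were above the floor, with median levels of 4.80, 11.1 and 5.11.

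The 26 probes were looked up in the 8 regions that did not choose them. In region 3, the next Pdpn-adjacent region in depth, 25 of the 26 were above the floor, where 2.77% of all probes were, and their median level was 20.1 against 12.4 in region 7. In the SMA-adjacent regions 10, 5, 9, 1 and 6 the count was 22, 21, 14, 5 and 5 of 26, with median levels of 4.08, 4.52, 2.43, 1.57 and 1.10. Region 11 had 6 and region 2 had 17, but the floors of these 2 shallow regions lie under 2 counts. High levels of the muscle genes were therefore found in region 3 as well as region 7, while regions 4 and 8 had 4 and 11 of the 26 above their floors. All 26 were also called after scaling by TMM, where 33 probes were. Whether the muscle RNA lay inside the ZsGreen-positive area or came from fibres beside it was not tested.

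**Figure D3:**
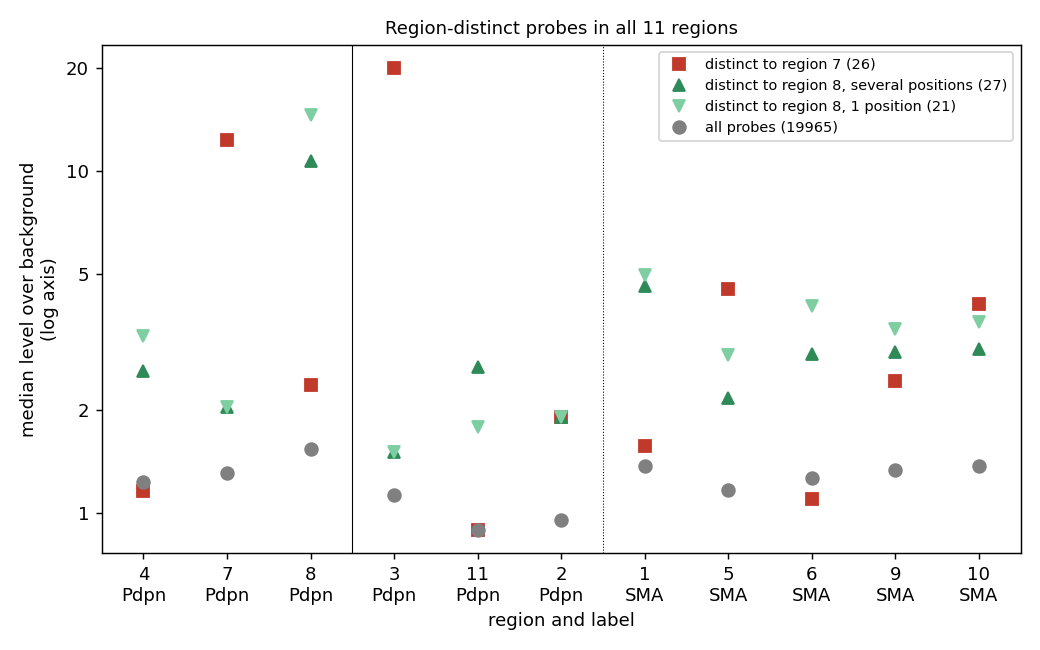
Median level of the probes distinct to region 7, of those distinct to region 8 with several genome positions or with 1, and of all probes, in each of the 11 regions on a log axis; the solid line parts the 3 regions that chose the probes from the rest and the dotted line parts the Pdpn-adjacent from the SMA-adjacent regions. The 26 probes distinct to region 7 reach 20.1 in region 3, and those distinct to region 8 lie between 1.50 and 4.95 in each region outside the 3.

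The stretch upstream of Acta1 is shown with that of Adipoq, the fat-cell hormone adiponectin, whose levels were 23.6, 32.0 and 15.8, so that the sequences before a gene distinct to region 7 and before a gene high in all 3 regions can be read side by side. Each is the 250 bases before the annotated start, 5′ to 3′ on the gene's strand, from RefSeq (GRCm38.p6): Acta1 at chr8:123894776-123895025 on the minus strand and Adipoq at chr16:23146286-23146535 on the plus strand. Capitals mark the CArG box (the motif of serum response factor), CANNTG (the E-box of MyoD and related factors) and TATAAA, searched on both strands.
Acta1: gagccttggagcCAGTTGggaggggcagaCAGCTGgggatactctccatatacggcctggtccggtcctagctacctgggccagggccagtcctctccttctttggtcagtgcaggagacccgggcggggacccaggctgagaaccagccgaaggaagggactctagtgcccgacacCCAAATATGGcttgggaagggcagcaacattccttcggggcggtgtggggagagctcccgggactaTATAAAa
Adipoq: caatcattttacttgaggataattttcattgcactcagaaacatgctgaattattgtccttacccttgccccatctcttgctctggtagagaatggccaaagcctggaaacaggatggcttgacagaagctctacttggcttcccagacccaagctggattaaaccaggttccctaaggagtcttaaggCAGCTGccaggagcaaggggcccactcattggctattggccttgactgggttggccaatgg
The Acta1 stretch holds 1 CArG box, 2 CANNTG matches and 1 TATAAA, and that of Adipoq holds 1 CANNTG. Of the 26 genes 21 had an upstream sequence in the table, and 4 of the 21 (Acta1, Fhl1, Ldb3 and Myh4) held a CArG box, against 439 of 27025 genes (1.62%). CANNTG was found in 17 of the 21, against 69.3% of all genes, and TATAAA in 7, against 14.3%. Motifs were counted independently and may overlap, a gene with several starts counts once if any start has a match, and a match is a run of letters and not a shown site.

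Region 4 had no distinct probe (0.0%), and what set it apart from regions 7 and 8 was absence. The highest ratio in region 4 was 2.03 (1.05 to 4.50), for Etfdh, a flavoprotein of fatty acid oxidation. Conversely, 12 probes (0.0601%) were at least 3 times lower in region 4 than in both other regions, with the floor and 20 counts asked of both others. This reverse rule, and the genes it names in each region, were chosen after the values were seen. Globins led it. Hba-a1, the alpha chain of adult haemoglobin, had 177, 527 and 393 counts, or levels of 2.31, 76.7 and 50.2 in regions 4, 7 and 8. Region 4, by far the most deeply counted, thus held fewer counts of this gene than either other region, at a level 21.8 times (18.2 to 26.1) under region 8 and just below its floor of 2.33.

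The beta chains followed the alpha chain. Hbb-b1 had levels of 1.55, 40.8 and 21.9, and Hbb-b2 had 0.874, 14.6 and 8.05. The probes of Hba-a1 and Hbb-b1 have 2 genome positions each and that of Hbb-b2 has none listed, so the globin copies cannot be told apart. Of the 7 measured members of the red cell list, which holds Hba-a1, the others were under the floor in all 3 regions except Ahsp, the chaperone of the alpha chain. Ahsp had 4.89, 3.35 and 2.17, above the floor in regions 4 and 7 and highest in region 4, where the globins were lowest. Low globin levels were not particular to region 4 among the Pdpn-adjacent regions. Hbb-b1 was under the floor in region 3, at 1.13, and in region 11, at 0.889, and stood at 3.81 in region 2, all of them shallow. In the SMA-adjacent regions it was at 28.7 to 94.6. Of the other 9 probes lower in region 4, 7 were muscle genes named above (Atp2a1, Tnnc2, Tnni2, Ckm, Myh4, Tnnt3 and Acta1), and the remaining 2 were Eln and the tropomyosin Tpm1, of smooth and skeletal muscle, at 2.15, 24.2 and 8.69.

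The sequence before Hba-a1 is given because that gene had the largest gap in region 4. That before Krt18 is given because it is the keratin among the probes at least 3 times lower in region 7, described below. Both are on the plus strand, Hba-a1 at chr11:32283422-32283671 and Krt18 at chr15:102027966-102028215 (RefSeq, GRCm38.p6), with the same motifs in capitals.
Hba-a1: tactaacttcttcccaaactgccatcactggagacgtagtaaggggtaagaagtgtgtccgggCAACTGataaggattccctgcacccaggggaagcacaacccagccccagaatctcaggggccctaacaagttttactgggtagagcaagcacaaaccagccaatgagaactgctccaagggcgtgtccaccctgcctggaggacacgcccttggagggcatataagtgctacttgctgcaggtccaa
Krt18: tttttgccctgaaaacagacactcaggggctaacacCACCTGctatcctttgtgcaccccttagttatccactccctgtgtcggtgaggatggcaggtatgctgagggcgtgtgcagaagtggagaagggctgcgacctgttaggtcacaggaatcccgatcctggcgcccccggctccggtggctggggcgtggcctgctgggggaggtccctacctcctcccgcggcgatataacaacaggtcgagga
Each of these 2 stretches holds 1 CANNTG match and neither of the other motifs.

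Some luminal epithelial genes were above the floor in regions 4 and 8 and were at or near background in region 7. Of 23 luminal genes 6 were above the floor in region 4 and 5 in region 8, and none in region 7, beside 9.23%, 10.2% and 5.73% of all probes. The count in region 7 is near its share of all probes, and its floor was the highest of the 3. Epcam, the adhesion molecule of epithelia, had levels of 4.46 (4.00 to 4.96), 1.89 (1.01 to 3.24) and 5.11 (3.65 to 6.96) in regions 4, 7 and 8. The luminal keratins above the floor in regions 4 and 8 moved with it. Krt19 had 4.32, 1.89 and 4.60, Krt8 had 3.47, 1.46 and 4.22, and Krt18 had 3.60, 1.02 and 3.96. In each of these 4 genes region 7 was lowest, and its 7 to 13 counts a gene cannot be told from background at this depth. Not all members had this order: Wnt4, a signal for duct branching, had 1.83, 2.77 and 1.92, and the luminal transcription factor Elf5 had 1.79, 2.04 and 1.53, highest in region 7 though under its floor. Elf3, called in region 4 alone, had 2.45, 2.47 and 2.30 and so was not lower in region 7. Another luminal keratin, Krt7, was under the floor throughout, at 1.06, 0.582 and 1.53. The prolactin receptor Prlr, through which the gland is prepared for milk, had 2.87, 2.04 and 3.19.

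Basal and myoepithelial genes were few by comparison. Of 12, 1, 1 and 2 were above the floor, near the shares of all probes (9.23%, 5.73% and 10.2%), and Krt14, the keratin of the basal layer, was at 0.952, 1.46 and 1.02. Oxtr, the oxytocin receptor of myoepithelium, was called in regions 7 and 8, at 4.51 and 3.96, and was at 1.67 in region 4. Genes of milk and secretion gave 5, 1 and 5 calls of 18, to be read against the same shares of all probes. The count in region 7 is near its share. Mfge8, a protein of the milk fat globule that other cells make too, had 2.92, 2.33 and 5.49, and the droplet protein Plin2, shared with fat cells, had 3.87, 3.35 and 4.86. The chloride transporter Slc12a2 had 2.65, 1.60 and 4.60.

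Region 7 was at least 3 times lower than both other regions for 7 probes (0.0351%). The growth factor pleiotrophin (Ptn) led with 387, 6 and 45 counts, or levels of 5.05, 0.873 and 5.75. Fcgbp, a mucus-associated protein, had 3.38, 0.582 and 3.32, and D17H6S56E-5 had 5.23, 1.02 and 4.60. For all 3 genes the levels of regions 4 and 8 overlapped in their intervals while region 7 was at background. Krt18 was in this set at a ratio of 3.53 (1.69 to 8.87), as was C1qa, a complement chain of macrophages, at 2.35, 0.728 and 4.73. In the SMA-adjacent regions, the label meant for ducts and blood vessels, Ptn was at 1.04 to 3.01, Fcgbp at 1.16 to 1.60 and Krt18 at 1.14 to 1.86. Of the 16 macrophage genes 5, 0 and 5 were above the floor in regions 4, 7 and 8, beside 9.23%, 5.73% and 10.2% of all probes, and the count in region 7 is near that share.

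**Figure D4:**
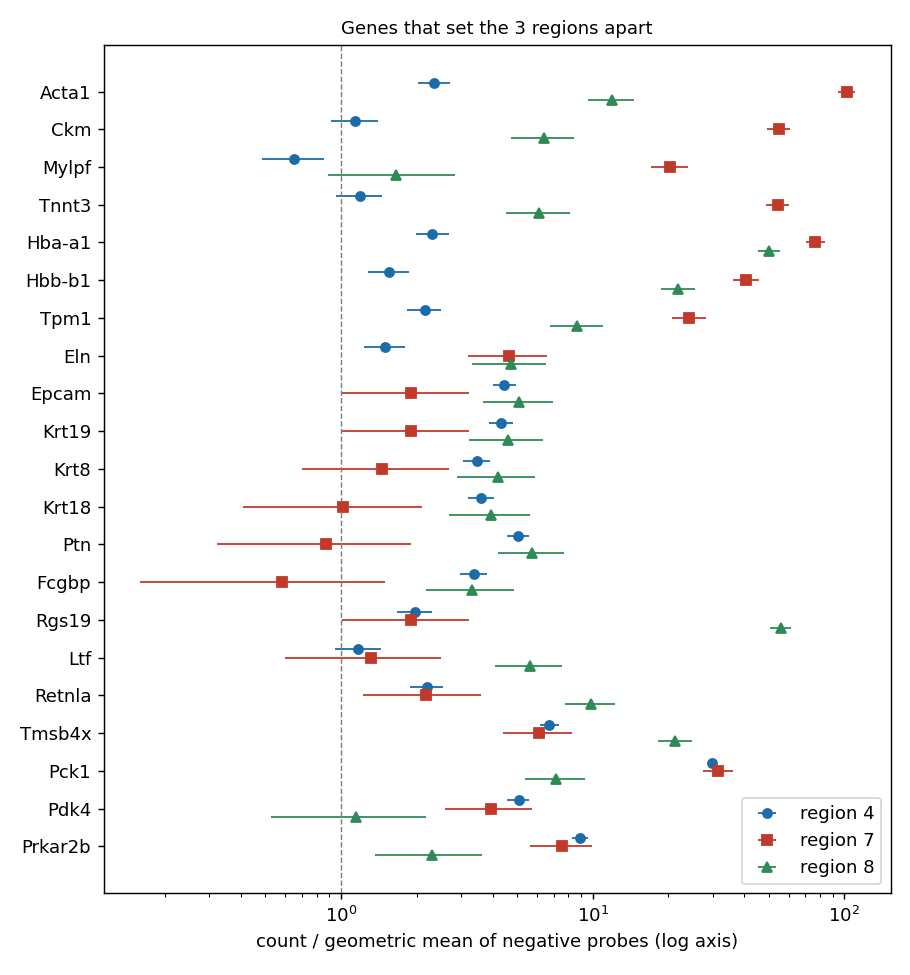
Levels over background of genes that set regions 4, 7 and 8 apart, on a log axis with exact 95% counting intervals and background as a dashed line. Muscle genes and globins are lowest in region 4 and highest in region 7, the epithelial genes Epcam, Krt19, Krt8 and Krt18 are lowest in region 7, and Rgs19 stands at 56.0 in region 8 and under 2 in both others.

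Region 8 had 48 distinct probes (0.24%), and 1 of them stood far from the rest. Rgs19, which shortens signalling from G-protein coupled receptors, gave 151, 13 and 438 counts from its probe (chr2:181691520-181691554), or levels of 1.97, 1.89 and 56.0 in regions 4, 7 and 8. Region 8 was 28.4 times region 4 (23.6 to 34.4), and the next largest ratio among the 48 was 4.94. At the edge of the rule Mlc1 lay inside at 3.01 times and Vmn2r46 outside at 2.99. In the other 8 regions Rgs19 was at 0.375 to 4.95. The level thus comes from 1 probe in 1 region, and no other probe of this gene was measured.

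Other named genes distinct to region 8 included secreted proteins of epithelium and macrophages. Lactoferrin (Ltf), an iron-binding protein of milk and of neutrophil granules, had levels of 1.17, 1.31 and 5.62, a ratio of 4.29 (2.07 to 10.0), and was at 1.06 to 1.24 in the SMA-adjacent regions. Retnla, a resistin-like protein of macrophages and fat tissue, had 2.19, 2.18 and 9.84, and was at 4.03 to 13.9 in the SMA-adjacent regions. Smim22, a small membrane protein, had 4.45, 3.06 and 20.8. Cd74, the invariant chain of antigen-presenting cells, was also highest in region 8 at 5.23, 3.78 and 10.2 without being distinct. Of 9 measured neutrophil and monocyte genes 1, 0 and 2 were above the floor in regions 4, 7 and 8. Of these genes S100a8 and S100a9 stood at 3.19 and 3.83 in region 8. None of the 12 T and NK cell genes was called in any of the 3. Both counts are to be read against the shares of all probes called (9.23%, 5.73% and 10.2% in regions 4, 7 and 8), and that of T and NK cell genes is near them.

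Most of the 48 were of another kind. Of them 27 (56.25%) have several genome positions, against 2.97% of all probes, and 28 carry provisional names that begin with Gm or LOC, against 2.685% of all. Up to 36 positions were listed for a probe, 14 of the 48 had at least 10, and 13 shared a listed transcript accession with another of the 48, so they are not 48 separate genes. Gm52800 had levels of 39.7, 16.2 and 179, LOC118568634 37.4, 19.2 and 172, and Chic2, a palmitoylated membrane protein, 27.4, 18.9 and 89.1. Across the panel the several-position probes were above the floor in 20.6%, 13.3% and 30.0% of cases in regions 4, 7 and 8, against 8.89%, 5.47% and 9.63% of 1-position probes. The gene behind a level of such a probe is uncertain.

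The count for region 8 depended on the scale. After TMM scaling 21 probes were distinct to it, all of them among the 48, and 11 of the 21 have several positions. Rgs19, at 22.2 times, was the largest on that scale too. Of the 81 ribosomal protein genes 70 were above the floor in all 3 regions, beside 3.65% of all probes. Their median levels were 5.23, 6.11 and 8.82 in regions 4, 7 and 8. They took 1.42%, 1.51% and 1.95% of all counts, and background counts are part of that share. The counts left after background was taken away were 26.0%, 30.0% and 41.4% of all, so background weighed least on the share in region 8. How much of a higher level in region 8 lies in the scale was not tested.

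Region 8 was lower than both other regions by at least 3 times for 4 probes (0.02%). Pck1, the enzyme that makes phosphoenolpyruvate and, in fat cells, glycerol for triglyceride, had 2292, 217 and 56 counts, or levels of 29.9, 31.6 and 7.16. Regions 4 and 7 overlapped in their intervals, and region 8 was 4.18 times lower (3.20 to 5.55). Pdk4, the kinase that shuts off pyruvate oxidation, had 5.07, 3.93 and 1.15, and Prkar2b, a regulatory subunit of protein kinase A abundant in fat, had 8.91, 7.57 and 2.30. Idh3g, a subunit of a Krebs cycle dehydrogenase, had 6.28, 7.13 and 1.92. These 4 were also called after TMM scaling, where 10 probes were.

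Genes of the respiratory chain and Krebs cycle were lowest in region 8 as well, where levels as a whole were shifted up. Of 28 genes 24, 24 and 20 were above the floor in regions 4, 7 and 8, beside 9.23%, 5.73% and 10.2% of all probes. Their median levels were 6.45, 7.42 and 4.86, and they took 0.700%, 0.697% and 0.372% of all counts. Atp5b, a subunit of the ATP synthase, had 23.2, 26.8 and 12.3, and Cox4i1, of cytochrome oxidase, 17.7, 18.3 and 13.7. Of 8 brown fat genes 3, 1 and 0 were called, beside 9.23%, 5.73% and 10.2% of all probes, and the counts in regions 7 and 8 are near those shares. Ucp1, the uncoupling protein of brown and beige fat cells, had 3.30, 1.75 and 2.04, above the floor in region 4 alone, and Cox8b, a cytochrome oxidase subunit of brown fat and muscle, had 4.67, 3.49 and 1.41.

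**Figure D5:**
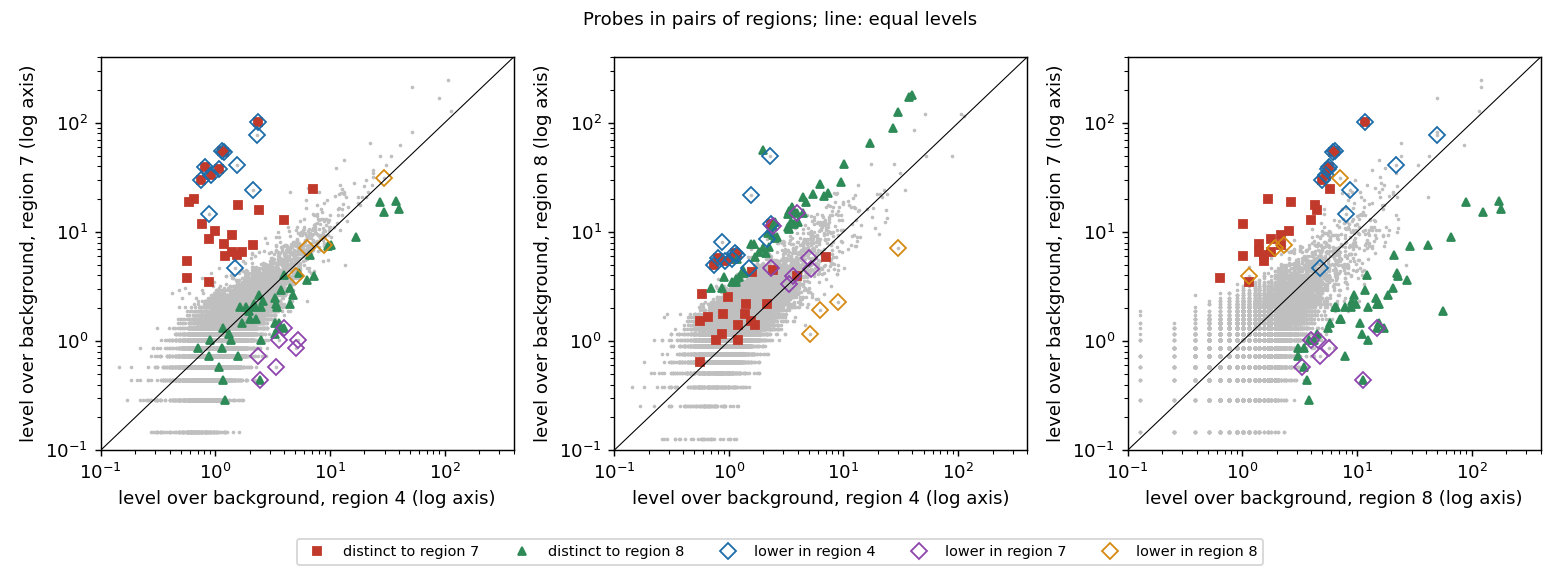
Levels over background of all 19965 probes in each pair of regions 4, 7 and 8, both axes logarithmic, with a line of equal levels, filled symbols for probes distinct to a region and open diamonds for probes lower in a region than in both others. Most probes lie near background and spread widely there, and the rank correlation is 0.694 for regions 4 and 7 and 0.555 for regions 7 and 8.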

How the data were processed

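The deposited values are unnormalized counts for each probe, judged from whole numbers with unlike column totals. No value is under 1, and the sources used here do not say whether 1 was added to each, nor how reads became counts. Genome coordinates are those of GRCm38.p6, per the file headers. Of 19965 endogenous probes 19954 have a gene identifier, and 19910 of these matched the RefSeq gene table.

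Levels are counts over the geometric mean of 210 negative probes. Intervals for levels are exact Poisson, and for ratios exact conditional binomial. TMM factors came from edgeR 4.0.16 in R 4.3.3. All else ran in Python 3.11.15 with numpy 2.4.6, pandas 2.3.3, scipy 1.17.1 and matplotlib 3.10.9. The rules for distinct probes were tested on simulated data. No test across regions was run, because each region stands against 2 others.

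The regions, the 34 lists and the rules were chosen with earlier results of these data known. The naming rule took Postn, Pdpn, Acta2, the 20 probes with the highest shared level, the 15 distinct probes of largest ratio per region, 5 members of highest level per list, and 5 lymphatic genes. It asked that the 5 probes closest above the 3-fold limit be left unnamed, which was not kept for Smyd1 and Mlc1. Other genes named (Adipoq, Cidec, Hbb-b1, Hbb-b2, Krt14, Krt7, Etfdh, Wnt4, Elf5, Elf3, Smyd1, Mlc1, Vmn2r46, Fhl1 and those lower in a region) were picked after their values were seen. Alternatives changed the floor, the scale, the fold, the minimum count or the regions used.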

Additional observations from a re-analysis of the deposited data

Results flagged for a closer look

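In each of the 34 lists the median level was compared over the 6 Pdpn-adjacent regions, and a region was picked out when its gap to the nearest other was large for the whole range (Dixon's criterion at 95%). Chance alone picks out about 1 group in 20, and 3 of the 34 lists met the criterion. In regions 2 and 11, 17960 and 15487 of the 19965 probes stood at 1 count. Depth can therefore fix the list medians of these 2 regions, and with them the range used here. The sarcomere scaffold list, of Z-disc and filament proteins of muscle, had its highest median in region 3, at 7.69, against 2.77 in region 7, the next. The mast cell list was highest in region 8, at 1.60 against 1.13 in the next region, though none of its 10 members was above the floor in regions 4, 7 or 8. The neutrophil and monocyte list was highest in region 8 too, at 1.79 against 1.19, where the median of all probes was also highest of the 3 at 1.53.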

How the results depend on the processing

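No paired analysis was possible because the region numbers are unique to a region and the results come from no test. The counts in regions 4, 7, 8 and all 3 rested on the floor: at 3 SD they were 551, 345, 448 and 225, and at 2 times the geometric mean 2979, 4181, 6259 and 1983. At the 95th percentile of the negative probes they were 2856 in region 7, 5309 in region 8 and 1522 in all 3. With region 3 added, 181 were shared, and leaving out 1 of the 3 regions gave 819 to 1175. Distinct probes in regions 4, 7 and 8 numbered 2, 60 and 240 at 2-fold, and 12 and 1 in regions 7 and 8 at 5-fold. Leaving out 1 other region gave 5 to 12, 41 to 50 and 81 to 148. In region 8 they numbered 21 by TMM, 21 by upper quartile, 87 with background subtracted and 21 without probes of several positions, which was tried once the data had been seen. The counts of probes lower in regions 4, 7 and 8, and their alternatives, were also chosen after seeing the data. They were 33, 39 and 16 at 2-fold, 3 and 0 in regions 7 and 8 at 5-fold, 6, 2 and 2 with 50 counts, 13 and 8 in regions 7 and 8 by upper quartile, and 10 in region 8 by TMM. Leaving out 1 region gave 50 to 81, 12 to 148 and 5 to 41. Over the 102 list medians, 102 moved by less than their interval with the median of the negative probes and with 1 subtracted from each count. With only members above the floor in at least 1 region, 61 moved by more and 29 did not; the lymphatic, T and NK, B and plasma, and mast cell lists have no such member and gave no value. The cause of these changes was not tested. In region 7, 1 count is a level of 0.146, so a gene with fewer counts than its floor of 21.5 cannot be told from background there, and 3 regions with no known mouse give no estimate of animal-to-animal error.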
